A study of Mus musculus with 12 samples.

Results

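The Trim5-Trim30 cluster is a run of 9 protein-coding Trim genes on mouse chromosome 7. It was chosen from the counts analysed here, because in this comparison some of its paralogs fell and others rose in Pon2-/- HSCs, so that the genotype differences of its members are given below as a description and without a test. The members are Trim34a, Trim5, Trim12a, Trim34b, Trim12c, Trim30b, Trim30c, Trim30a and Trim30d, which are 9 of the 49585 genes counted. RNA-seq was performed on bone marrow HSCs sorted as Lin-, Sca1+, ckit+, CD135- and CD150+ cells, a gate that holds LT-HSCs and MPP2 cells according to the study. The groups were 6 WT and 6 Pon2-/- mice with the background C57BL/6J, 10 to 14 weeks of age and without further treatment. Pon2-/- mice carry a gene trap with β-geo, flanked by loxP sites, in an intron of Pon2 in all cells. WT animals came from Charles River, and where Pon2-/- animals were bred is not given, so that origin and genotype cannot be told apart. Each mouse gave 8 wells of 10 cells, and 1 count per gene and mouse was used here.

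TRIM proteins combine a RING domain, which gives ubiquitin ligase activity, with B-box and coiled-coil domains and often a C-terminal domain that binds the target. Trim5 of primates recognises retroviral capsids and blocks infection, and in rodents its relatives form an expanded family next to the Trim30 and Trim34 genes. Many of these genes are induced by interferon, and their proteins also touch innate signalling, since TRIM5 acts with the kinase TAK1 and Trim30a is known to lower TAB2 and TAB3, the adaptors of TAK1.

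The total count per sample was between 12967791 and 24228280 in WT HSCs and between 14671353 and 23122382 in Pon2-/- HSCs. At these depths, 0 reads allow up to 3 counts per sample, equal to 0.121 to 0.235 counts per 1000000 counts (CPM), which covers counting error only. Pon2 itself had 56.4, 105 and 202 CPM as lowest, median and highest values in WT HSCs and 1.16, 29.9 and 33.1 CPM in Pon2-/- HSCs. Its log2 fold change was -2.13 with a standard error (SE) of 0.57 and an edgeR adjusted p of 0.586, and the genotypes did not overlap. Exons upstream of the trap are included in this count. All 10 HSC markers were counted, with a summed level of 2263 to 2840 CPM (WT) against 2192 to 2783 CPM (Pon2-/-). The summed markers were 25.5 to 353 CPM against 58.8 to 868 CPM for the B lineage and 0.0424 to 49.2 CPM against 25.5 to 61.5 CPM for the T lineage, where Cd3e, Cd5 and Cd8a were at 0. They were 608 to 9451 CPM against 639 to 14519 CPM for macrophages and granulocytes, and 9.16 to 73.8 CPM against 15.9 to 46 CPM for erythroid cells, a list that includes the chromosome 7 genes Hbb-bt and Hbb-bs and where Car1 was at 0. All ranges overlapped, and the part of other cells in the results below was not tested.

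The 9 genes span 263 kb, chr7:104244457-104507849 on GRCm38. Trim34a (ENSMUSG00000056144.14, chr7:104244457-104262234) and Trim34b (ENSMUSG00000090215.9, chr7:104329471-104336909) lie on the plus strand, and the other 7 lie on the minus strand. Trim5 (ENSMUSG00000060441.15, chr7:104263386-104288094) and Trim12a (ENSMUSG00000066258.13, chr7:104299894-104315466) lie between the Trim34 genes, and Trim12c (ENSMUSG00000057143.15, chr7:104338754-104353362) follows Trim34b. The Trim30 genes come last, in the order Trim30b (ENSMUSG00000052749.9, chr7:104355382-104369884), Trim30c (ENSMUSG00000078616.2, chr7:104382065-104400837), Trim30a (ENSMUSG00000030921.17, chr7:104409025-104465193) and Trim30d (ENSMUSG00000057596.13, chr7:104470014-104507849). The genes with the 3 widest differences between genotypes, Trim5, Trim12a and Trim34b, were neighbours in this order.

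**Figure D1:**
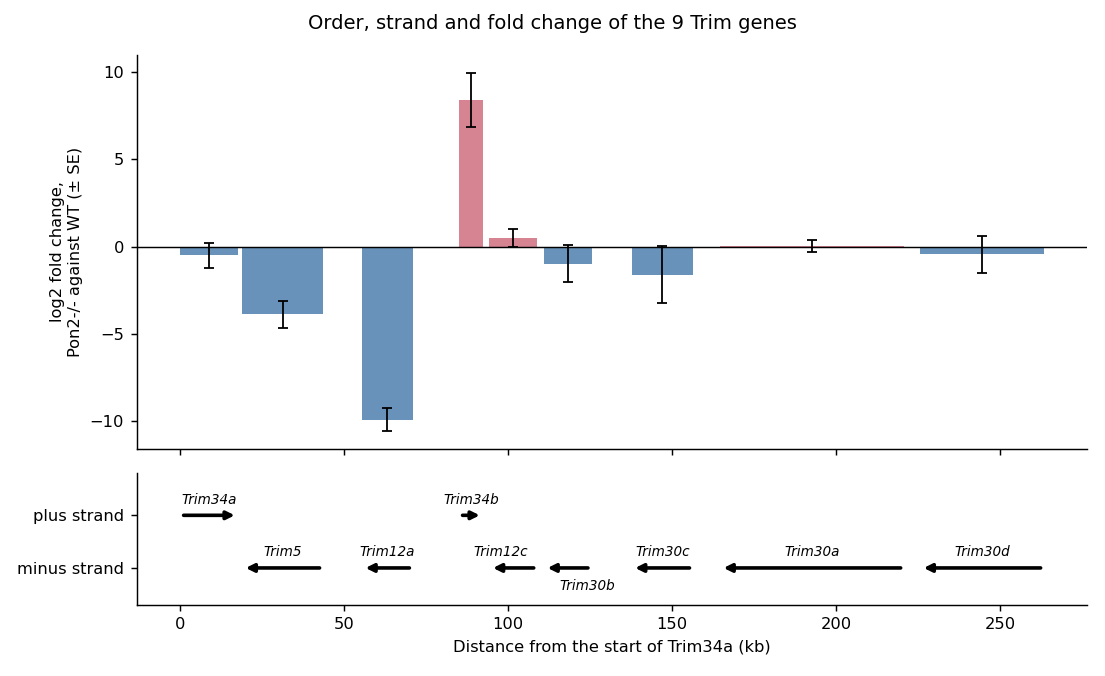
Lower panel, the 9 genes by distance from the start of Trim34a (kb), with arrows in the direction of transcription on the plus or minus strand. Upper panel, the log2 fold change of each gene in Pon2-/- against WT HSCs (6 mice each), with bars as wide as the gene (at least 6 kb) and error bars of 1 SE; it is -3.87 for Trim5, -9.90 for Trim12a and 8.38 for Trim34b, while Trim30a lies at 0.03.

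Promoters of the cluster were taken from RefSeq (GRCm38.p6), which held all 9 members with 10 start sites, as windows from 250 bases before to 50 bases after the start. Trim5 and Trim12a, which both had fewer counts in Pon2-/- HSCs, share a promoter stretch that is identical over 241 bases, and that of Trim12c, whose counts overlapped, is 94.2% identical to the Trim5 promoter over 278 bases. The 120 bases that end with an interferon-stimulated response element (ISRE), printed in capitals, are shown to let the 3 promoters be compared. They are given 5′ to 3′ on the minus strand.
Trim12a, chr7:104315476-104315595: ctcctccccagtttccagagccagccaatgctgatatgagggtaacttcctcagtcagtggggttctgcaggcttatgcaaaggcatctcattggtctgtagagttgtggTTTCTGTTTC
Trim5, chr7:104288146-104288265: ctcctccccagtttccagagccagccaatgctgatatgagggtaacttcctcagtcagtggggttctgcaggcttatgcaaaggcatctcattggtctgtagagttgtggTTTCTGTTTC
Trim12c, chr7:104353369-104353488: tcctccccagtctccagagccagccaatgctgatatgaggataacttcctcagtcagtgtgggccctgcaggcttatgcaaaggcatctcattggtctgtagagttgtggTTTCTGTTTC
Over this stretch, Trim12c differed from Trim12a by 4 mismatches and 2 gap columns of an alignment, none of them in the capitals.

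The ISRE was searched as GAAANNGAAA, or TTTCNNTTTC on the other strand, and was found in 1131 of 32851 RefSeq promoter windows of the same length (3.44%). It was present in 7 of the 10 windows of the cluster and in 6 of the 9 genes, and was not found for Trim34b, Trim30b and Trim30c. The other elements, printed here with 10 bases on each side because they show the letters shared within each subfamily, are given in the direction of transcription.
Trim30a at its outer start site, chr7:104465210-104465239: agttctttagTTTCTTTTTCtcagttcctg
Trim30a at its inner start site, chr7:104446104-104446133: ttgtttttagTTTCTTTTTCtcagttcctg
Trim30d, chr7:104507871-104507900: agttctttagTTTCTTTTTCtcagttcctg
Trim34a, chr7:104244457-104244486: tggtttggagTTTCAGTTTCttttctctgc
The outer Trim30a window and the Trim30d window are the same over these 30 bases, and their whole promoters are 93.9% identical over 294 bases. Relative to the start site, whose first base is counted as 0, the element begins at -36 for the outer and 2 for the inner start of Trim30a, -41 for Trim30d, 10 for Trim34a and Trim12a, -49 for Trim5 and -29 for Trim12c. A gamma-activated site, searched as TTCNNNGAA, was found in 8.3% of all windows and in 1 gene of the cluster, Trim30c. Of the 3 genes with the widest differences, Trim5 and Trim12a hold the ISRE letters in this window and Trim34b does not. Such matches are descriptions of letters and were not tested for binding.

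Because reads that fit more than 1 gene equally well cannot be given to any of them, transcripts were compared next. In windows of 75 bases, Trim34b shared 42.5% of its sequence with Trim34a and had 57.5% to itself. Trim34a shared 29.5% with Trim34b, and 51.4% was particular to it, as another part also matches the antisense gene Gm47248, which had 0 counts in all 12 samples. The transcripts of the Trim34 genes are 98.7% identical over 1827 bases. Trim5 and Trim12c, 94.6% identical over 3710 bases, had 79.4% and 82.7% of windows to themselves, respectively. Trim12a was particular over 94.4% of its windows, although it is 97.1% identical to Trim5 over 928 aligned bases and 96% identical to Trim12c over 967. Among the Trim30 genes, 95% of windows were particular for Trim30a, 94.6% for Trim30d, 99.6% for Trim30b and 100% for Trim30c. By these shares, counts of the Trim34 genes are the least certain of the cluster, and most windows of Trim12a and the Trim30 genes were found in no other gene. The windows cover all annotated transcripts of a gene, and which of these gave the reads was not tested.

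**Figure D2:**
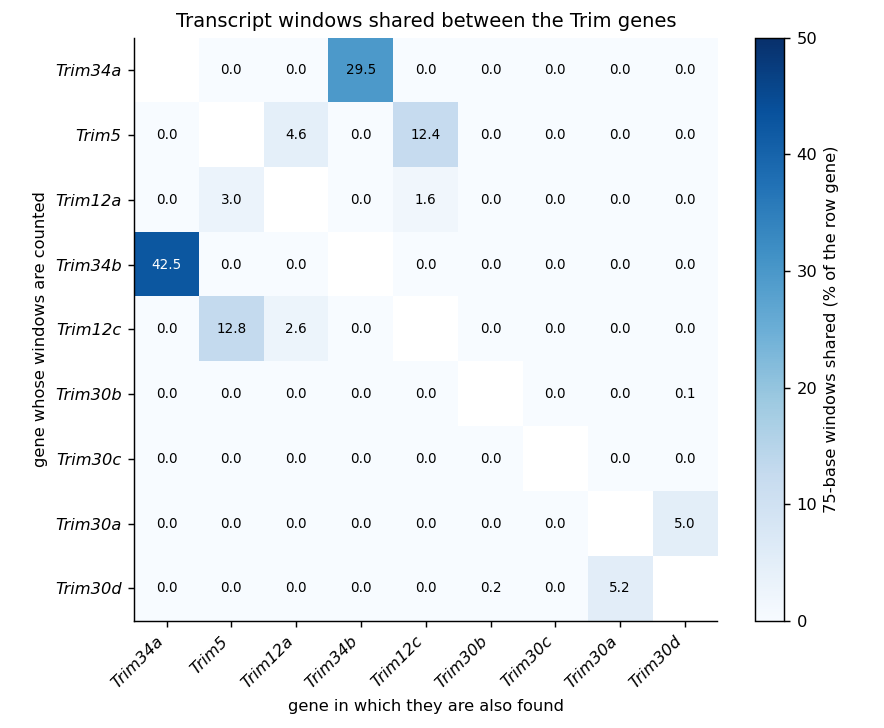
Percent of the 75-base transcript windows of each gene (rows) that are also found in a transcript of another gene of the cluster (columns), with darker blue for a larger share. Sharing is highest between Trim34b and Trim34a (42.5% and 29.5%) and between Trim5 and Trim12c (12.4% and 12.8%), and is at most 5.25% in the other pairs.

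Trim12a, Trim5 and Trim12c are the mouse relatives of primate TRIM5. Trim12a had 40.7, 67.9 and 93 CPM as lowest, median and highest values in WT HSCs and 0, 0.0583 and 0.12 CPM in Pon2-/- HSCs. In counts, this is 7249 against 7 reads, of which no Pon2-/- sample had more than 2. The lowest WT sample, with 663 reads, was thus far above every Pon2-/- sample, and the groups did not overlap. The log2 fold change of Trim12a was -9.90 (SE 0.67). As counts per library, WT exceeded Pon2-/- HSCs 1036-fold, with a 95% counting interval from 503 to 2577. This interval covers counting error of the pooled reads only and leaves out the spread between mice. The ratio was between 900- and 1231-fold when any 1 mouse was left out. The spread within WT was the smallest of the cluster, with a coefficient of variation of 31.7%. An antisense gene at the 5′ end of Trim12a, Gm15133, which shares no exon sequence with it, had 320 reads in WT HSCs, with 2 of the 6 samples at 0. In Pon2-/- HSCs it had 18 reads, all of them in replicate 3. It did not pass the filter on low counts and was not tested.

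Trim5 had 9, 10.6 and 23.4 CPM as lowest, median and highest values in WT HSCs and 0.463, 0.616 and 1.66 CPM in Pon2-/- HSCs. All Pon2-/- samples, with 9 to 25 reads, lay below all WT samples, with 147 to 299 reads. The mean was 14.7-fold lower in Pon2-/- HSCs, with a log2 fold change of -3.87 (SE 0.77). In contrast to Trim12a, with 2 reads or fewer per Pon2-/- mouse, a low count of Trim5 was therefore left in every one. Trim5 and Trim12c are 94.6% identical over 3710 bases, and whether some of these few reads came from Trim12c was not tested.

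Trim12c, the third gene of this subfamily, had 11.5, 30.9 and 71.1 CPM in WT HSCs and 25.6, 34.8 and 94.4 CPM in Pon2-/- HSCs as lowest, median and highest values. Its log2 fold change was 0.47 (SE 0.52), and the groups overlapped widely. In WT HSCs, Trim12a held 60.9% ± 11.8 (SD, n = 6) of the counts of the 3 genes, Trim12c 26.8% ± 12.2 and Trim5 12.3% ± 4.74. In Pon2-/- HSCs, Trim12c held 97.6% ± 1.81 (SD, n = 6), Trim5 2.28% ± 1.88 and Trim12a 0.156% ± 0.122. Together, the 3 genes had 111 ± 36.6 CPM (WT HSCs) against 44.7 ± 26 CPM (Pon2-/- HSCs; SD, n = 6 each), with overlap between the groups, and the level of Trim12c was not higher in Pon2-/- HSCs beyond its spread.

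Trim34b and Trim34a form the second subfamily, relatives of human TRIM34, and lie on either side of Trim5 and Trim12a. Trim34b was listed at 0 in 5 of 6 WT samples and had 2 reads (0.157 CPM) in WT replicate 4. In Pon2-/- HSCs, it had 0.853, 7.93 and 27.2 CPM as lowest, median and highest values, from 15 to 393 reads. All 6 Pon2-/- mice were thus above all WT mice, although they differed 31.9-fold among themselves. The log2 fold change was 8.38 (SE 1.57). As counts per library, Pon2-/- exceeded WT HSCs 506-fold, with a 95% counting interval from 140 to 4187. This interval, too, covers counting error of the pooled reads only and leaves out the spread between mice. Without WT replicate 4, the ratio was at least 298-fold, when the limit of 3 counts over the WT group was used. Trim34b was the only member above its WT samples without overlap.

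Trim34a had 5.89, 21.2 and 36.1 CPM in WT HSCs and 4.83, 8.81 and 39.2 CPM in Pon2-/- HSCs as lowest, median and highest values. Its log2 fold change was -0.51 (SE 0.69), with overlap. Trim34b held 0.072% of the counts of both genes in WT HSCs and 36.2% ± 13.8 (SD, n = 6) in Pon2-/- HSCs, with a range from 15% to 53.1%. The sum of the Trim34 genes was 20.9 ± 10.7 CPM (WT HSCs) against 24.4 ± 22.3 CPM (Pon2-/- HSCs; SD, n = 6 each). Pon2-/- replicate 4 was highest and replicate 3 lowest for both genes, and 42.5% of the windows of Trim34b also fit Trim34a. Reads that fit both genes equally well were not counted, and whether reads of 1 gene were counted for the other was not tested.

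**Figure D3:**
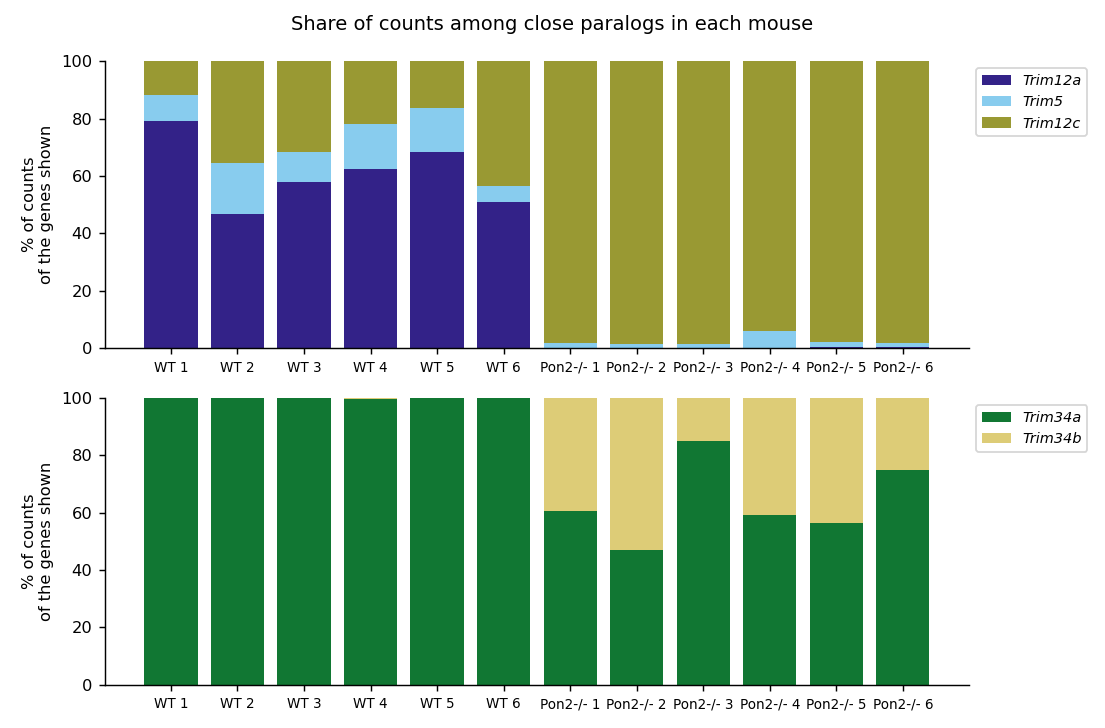
Stacked bars of the percent of counts that each gene holds in each mouse, among Trim12a, Trim5 and Trim12c (upper panel) and among Trim34a and Trim34b (lower panel). Trim12a fills 46.8% to 79.2% of the upper bars in the 6 WT mice and at most 0.326% in the 6 Pon2-/- mice, and Trim34b fills 15% to 53.1% of the lower bars in the Pon2-/- mice.

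Trim30a, which lowers TLR and NF-κB signalling, is the best known gene of the third subfamily. It had 41.9, 74.9 and 148 CPM as lowest, median and highest values in WT HSCs and 33.9, 78.5 and 132 CPM in Pon2-/- HSCs. Its log2 fold change was 0.03 (SE 0.35), and its groups covered nearly the same range. With 682 reads or more in every sample, it was the deepest of the Trim30 genes.

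Trim30b had 7.78, 33.2 and 57.3 CPM in WT HSCs and 0, 17.7 and 31.8 CPM in Pon2-/- HSCs, with a log2 fold change of -0.99 (SE 1.05). Trim30c had 0, 12 and 67 CPM in WT HSCs and 0, 1.58 and 22.4 CPM in Pon2-/- HSCs, with a log2 fold change of -1.61 (SE 1.63). Trim30d had 5.05, 16.6 and 80.7 CPM in WT HSCs and 0, 14.2 and 42.8 CPM in Pon2-/- HSCs, with a log2 fold change of -0.44 (SE 1.07). All 3 genes overlapped between genotypes, and the range within each genotype was wider than the difference between the group means. For Trim30c, WT replicate 5 held 49.4% of the WT reads and Pon2-/- replicate 1 held 61.1% of the Pon2-/- reads. WT replicate 2 held 51.1% of the WT reads of Trim30d, and without it the log2 fold change turned to 0.32 (SE 1.14). The 4 Trim30 genes summed to 158 ± 81.7 CPM (WT HSCs) against 124 ± 47.8 CPM (Pon2-/- HSCs; SD, n = 6 each). In bulk counts, fewer cells that express a gene and less RNA per cell cannot be told apart.

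**Figure D4:**
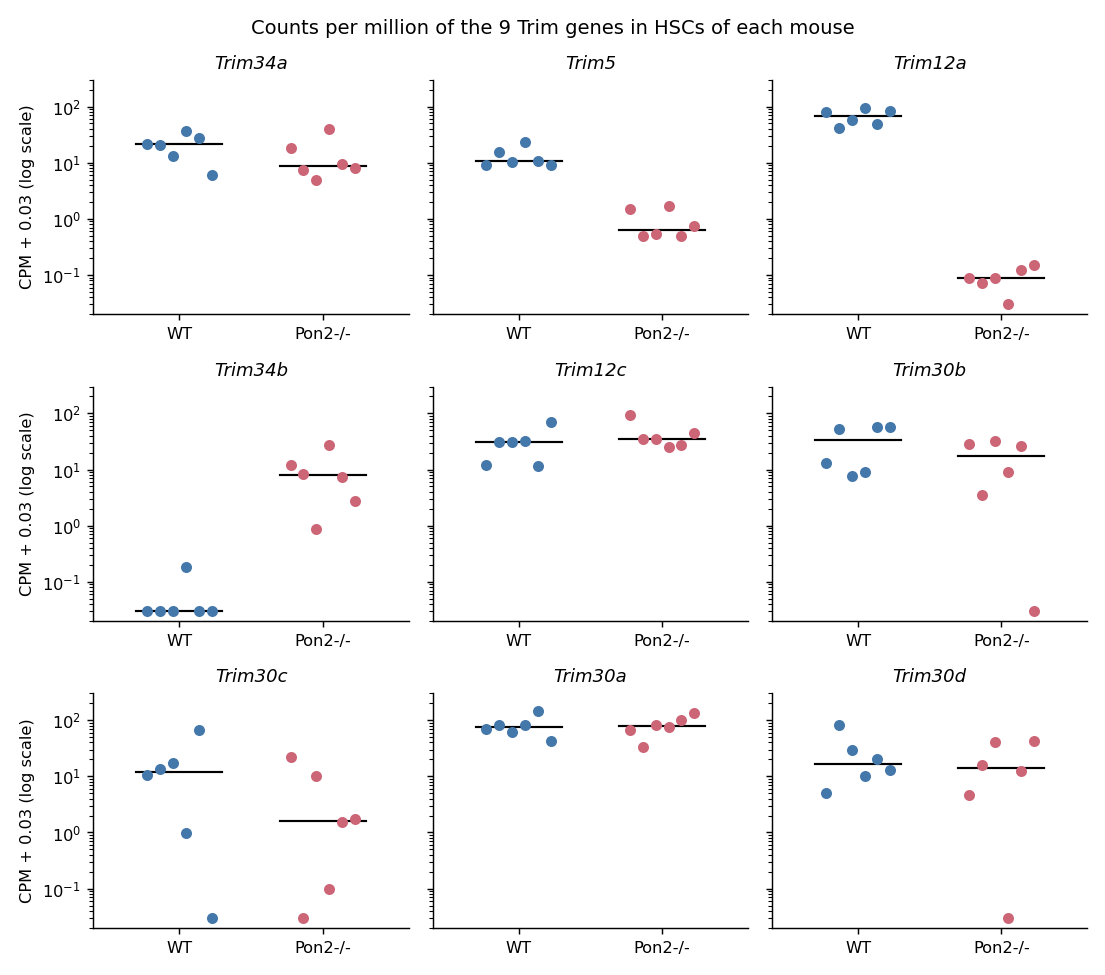
CPM of each gene in each mouse on a log axis, with 0.03 CPM added so that samples at 0 can be drawn. Points stand for replicates 1 to 6 from left to right in WT (blue) and Pon2-/- (red) HSCs and black lines for medians; Trim5 and Trim12a are lower and Trim34b is higher in Pon2-/- HSCs without overlap, and the other 6 genes overlap.

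All 9 genes passed the filter on low counts, Trim34b through the Pon2-/- samples and Trim12a through the WT samples alone. In edgeR, with the thresholds of an FDR below 0.05 and a fold change above 2, 24 of 11848 genes passed (0.203%), 15 of them higher (0.127%) and 9 lower (0.076%) in Pon2-/- HSCs. Whether single members passed is not given, because they are described here without a test. All Pon2-/- samples were above all WT samples for 0.388% and below them for 0.245% of genes, and in the cluster this was the case for 1 and 2 of 9 genes. As the members were selected on this contrast, nothing is read from these counts and shares. The median log2 fold change was -0.51 over the 9 genes and -0.01 over all genes, and the median absolute value was 0.99 and 0.32.

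Levels of the genes were compared per length, as CPM per kb of exon. The length was that of all annotated exons together, 5781 bases for Trim12a and 4111 for Trim30a. Their longest protein-coding transcripts have 1531 and 3771 bases, so that the order of these genes depends on the length used. Which transcripts gave the reads was not tested. In WT HSCs, Trim30a was highest with 19.6 ± 8.8, followed by Trim12a (11.6 ± 3.67), Trim30c (10.6 ± 14.5) and Trim12c (8.41 ± 5.81; SD, n = 6 each). Trim34a with 8.06 ± 4.1, Trim30d with 7.03 ± 7.42, Trim30b with 4.35 ± 3.34 and Trim5 with 3.53 ± 1.52 CPM per kb came next, and Trim34b had 0.0141. Each gene overlapped with its neighbour in this order, except that all WT values of Trim5 were above those of Trim34b. When only windows particular to a gene were used as length, Trim34a moved from rank 5 to rank 2, with 15.3 CPM per kb.

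In Pon2-/- HSCs, Trim30a was again highest with 20 ± 8.06 CPM per kb, and Trim12c took rank 2 with 11.7 ± 6.88 (SD, n = 6 each). Trim34a (5.65 ± 4.99), Trim34b (5.3 ± 5.12) and Trim30d (5.18 ± 4.86) had nearly the same mean level per kb, followed by Trim30c with 3.46 ± 5.17 and Trim30b with 2.2 ± 1.85. Trim5 with 0.241 ± 0.148 and Trim12a with 0.0107 CPM per kb were last. Trim12a thus went from rank 2 to rank 9 and Trim34b from rank 9 to rank 4, and only Trim5 and Trim12a, at the end of this order, did not overlap as neighbours. Over all 9 genes, the summed level was 290 ± 65 CPM (WT HSCs) against 193 ± 51.4 CPM (Pon2-/- HSCs; SD, n = 6 each), with overlap, and Trim12a made up 24.6% ± 10.3 of the WT counts.

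The closest Trim relative outside the cluster is Trim6, 9.3 kb from Trim34a. Its level was 27.8 ± 22.9 CPM in WT HSCs against 10.3 ± 8.88 CPM in HSCs of Pon2-/- mice (SD, n = 6 each), with a log2 fold change of -1.44 (SE 1.10, edgeR adjusted p = 1). The pseudogene Trim30e-ps1, beyond Trim30d, had 1 read in all samples together. Of 60 other Trim genes in the genome, 30 were tested and none passed in edgeR, DESeq2 or voom. At an unadjusted p below 0.05 in edgeR, 2 were higher and 0 were lower, and the median log2 fold change was 0.13 (median absolute value 0.45). The 2 genes were Trim21, an antibody receptor of the cytosol, with 17.6 ± 11.9 against 55.3 ± 38 CPM (log2 fold change 1.65, SE 0.68), and Trim16 with 3.6 ± 4.61 against 29.2 ± 27.2 CPM (3.02, SE 1.28), each with an adjusted p of 1. Trim47 (-0.64, SE 0.36), Trim59 (0.55, SE 0.38) and Trim7 (2.81, SE 1.94) were next by p. A difference in the other Trim genes beyond the spread between mice was therefore not detected at this number of samples.

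To describe the surroundings of the cluster, genes within 2 Mb of it were listed, of which 24 of 269 were tested. Of these 24, Gvin1 and 9130208D14Rik passed, against 0.203% of all tested genes. Gvin1, a very large interferon-inducible GTPase at a distance of 1649 kb, had 3.08 ± 2.07 CPM in WT HSCs (320 reads in all) and 0 reads in the 6 Pon2-/- samples, at least 107-fold lower against 3 counts over the group (log2 fold change -8.82, SE 0.92, edgeR adjusted p = 0.00527). Gm4070, which is 99.97% identical to Gvin1 over 9005 aligned bases, had 3.95 ± 1.79 against 3.91 ± 2.8 CPM, so that the reads counted for Gvin1 rest on few differences between the genes. The pseudogene 9130208D14Rik, at 1316 kb, had 2 reads in WT and 345 reads in Pon2-/- HSCs, or 0.0155 ± 0.0244 against 3.09 ± 2.12 CPM (log2 fold change 7.03, SE 1.01, edgeR adjusted p = 0.00551). Over the other settings tried, the adjusted p ranged from 2.01e-09 to 0.811 for Gvin1 and from 4.02e-08 to 0.281 for 9130208D14Rik, and it was below 0.05 in 16 of 18 and 15 of 17 settings, respectively.

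Hbb-bt, an adult β-globin gene at 430 kb, had 6.11, 28.1 and 38.1 CPM as lowest, median and highest values in WT HSCs and 0, 0 and 1.11 CPM in Pon2-/- HSCs. The groups did not overlap, but with a log2 fold change of -7.04 (SE 1.65) it had an adjusted p of 0.265 in edgeR, and of 0.00559 without Pon2-/- replicate 4, the sample with 1.11 CPM. Over all other settings tried, its adjusted p was below 0.05 in 4 of 18 and at most 0.53. Hbb-bs, beside it, had 3.85 ± 4.43 against 1.93 ± 3.04 CPM. The remaining neighbours named by the smallest p were Trim21 and the pseudogene Gm4759 (log2 fold change -0.68, SE 0.38). Just beyond the window, at 2089 kb, the pseudogene Gm1966 had 40.2 ± 16.2 against 2 ± 0.881 CPM (log2 fold change -4.33, SE 0.61, edgeR adjusted p = 0.00527), and was named after its values were seen. The median log2 fold change of the 24 neighbours was -0.11, the same with Gvin1 at its limit, and the median absolute value was 0.35, against 0.32 over all genes. Of the 24 neighbours, 1 had all Pon2-/- samples above and 2 had them below all WT samples, against 0.388% and 0.245% of all genes. The median describes the middle of the list and not these few genes with wide differences. Whether the region differs from the rest of the genome was not tested.

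**Figure D5:**
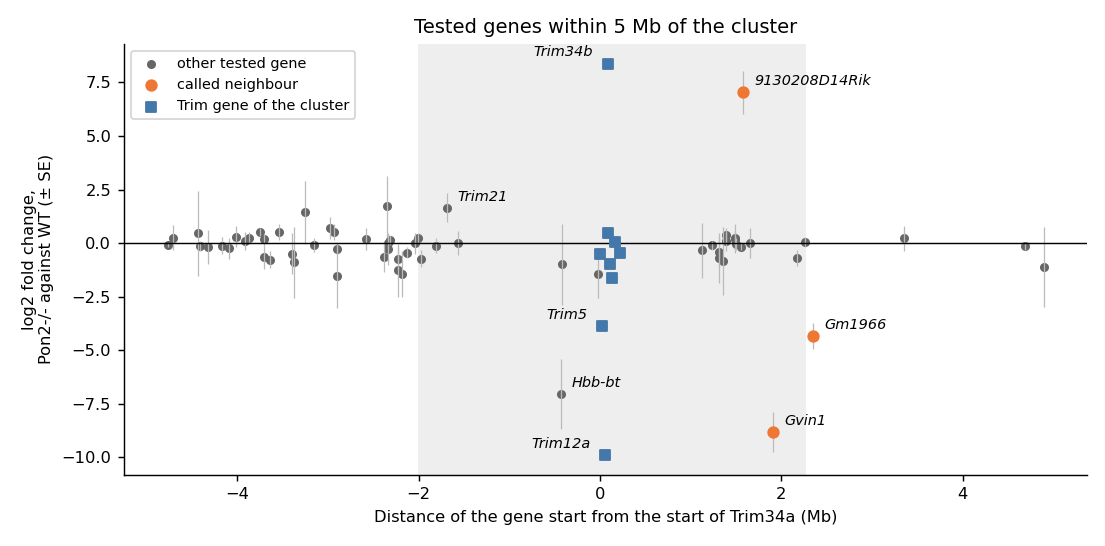
Log2 fold change in Pon2-/- against WT HSCs of tested genes within 5 Mb of the cluster, by distance of the gene start from the start of Trim34a (Mb), with grey error bars of 1 SE for genes outside the cluster and shading for 2 Mb on each side of it. Blue squares are the 9 Trim genes and orange points the genes outside the cluster that passed the edgeR thresholds; 9130208D14Rik lies at 7.03, Gvin1 at -8.82 and Gm1966 at -4.33, and most grey points lie near 0.

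As Trim genes of this cluster respond to interferon, 40 genes of the interferon receptors, their signalling and their targets were listed, of which 37 were tested. None passed in edgeR, DESeq2 or voom, and at an unadjusted p below 0.05 in edgeR, 3 were higher and 2 lower, with a median log2 fold change of 0.07 (median absolute value 0.29). Irf9, the DNA-binding part of the interferon-activated complex ISGF3, had a log2 fold change of 0.67 (SE 0.24), Usp18, which limits receptor signalling, 1.22 (SE 0.48), and Rtp4 0.61 (SE 0.24). Ifitm1, which blocks viral entry, had 1805 ± 358 CPM in WT HSCs against 1273 ± 191 CPM in Pon2-/- HSCs (-0.50, SE 0.15), and Parp14 had a log2 fold change of -1.37 (SE 0.60). The edgeR adjusted p was 0.76 for Ifitm1 and 1 for the other 4. The log2 fold change was above 0 for 23 and below 0 for 14 of the 37 genes.

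Of 17 genes whose proteins act with TRIM5 or TRIM30 proteins, among them those of TAK1 and its adaptors, 15 were tested. None passed in edgeR, DESeq2 or voom, 0 had an unadjusted p below 0.05 in edgeR, and the median log2 fold change was 0.14 (median absolute value 0.17). Map3k7, which encodes TAK1, had 23.9 ± 15 CPM in WT HSCs against 9.15 ± 8.5 CPM without Pon2 (SD, n = 6 each; log2 fold change -1.38, SE 1.17). Its adaptor Tab2 had a log2 fold change of 0.71 (SE 0.76). Among the genes of ubiquitin chain formation and of the IKK complex, it was 0.92 (SE 0.67) for Ube2v1, 1.01 (SE 0.95) for Chuk and 0.66 (SE 0.75) for Ikbkg. For each of these 5 genes, a difference of 2-fold is smaller than 2 SE.

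Finally, genes with a pattern like that of Trim12a or Trim34b were looked for by the Pearson correlation of log2 CPM over the 12 samples, which share their libraries and genotype groups. The nearest to Trim12a were Gnpda2, mt-Nd3, Hist1h4m and Gm26896, each with r = 0.99, and Htatip2 with r = 0.98. Of these 5 genes, Htatip2 lies on chromosome 7, at chr7:49759115-49773975. The nearest to Trim34b were Gm28438 and the interferon-inducible Ifi204, with r = 0.94, and Gm26862, BC018473 and Gm10704, with r = 0.93. Of these, Gm26862 lies on chromosome 7, at chr7:93006982-93104789. Neither gene is within 5 Mb of the cluster. Both Trim genes are at or near 0 in one genotype, so that r includes the difference between the genotypes.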

How the data were processed

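Smart-seq2 libraries, which are not stranded, were sequenced on a NextSeq. Adapters were removed by the authors with Trimmomatic 0.36 and alignment was to GRCm38.p5 by STAR 2.5.3a, and they deposited raw counts per gene of GENCODE M12, without normalization. STAR counts only reads with 1 mapping position, so that reads in sequence shared by paralogs are lost, and reads over overlapping genes are not assigned. Gene names, positions and exons came from GENCODE M21 (all 9 members kept their identifier and version), promoters from RefSeq.

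Counts were analysed in R 4.3.3 with edgeR 4.0.16 (TMM, filterByExpr, glmQLFit, glmQLFTest, genotype only) over all genes and adjusted by Benjamini-Hochberg. CPM used TMM-scaled libraries. log2 CPM for correlations used a prior count of 2. Genes passed with a log2 fold change beyond 1 in size and an FDR below 0.05. Biological variation was high (coefficient 99.2%). Replicates were the mice of the labels. Transcripts and promoters were aligned with Biopython 1.88. Alternatives were DESeq2 1.42.0 (tool and size factors), voom with quality weights in limma 3.58.1, other filters, a replicate block, other window sizes and leaving out each mouse. Marker sums were compared with two-sided exact permutation tests, adjusted over 5 lists; the smallest adjusted p was 0.335 (erythroid).

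The members and gene lists were chosen with earlier results of these data known. The text names all members, Pon2, for each list the genes that passed or up to 5 with the smallest p, and the 5 genes most correlated with Trim12a and Trim34b.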

Additional observations from a re-analysis of the deposited data

Results flagged for a closer look

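Of 58 groups of 6 samples checked for 1 sample standing apart from the rest, 10 had one. Chance gives about 1 in 20 only for normally distributed values. CPM with samples at 0 are not, so that the number found cannot be compared with this rate. Among the 18 groups of the cluster, 5 had one. Trim34b had 0.157 CPM in WT replicate 4, below the limit of 0.235 CPM for 3 counts there, and 0 in the other WT samples. Trim12c had 71.1 CPM in WT replicate 6 against 11.5 to 32.5 in the other WT samples, and 94.4 CPM in Pon2-/- replicate 1 against 25.6 to 44.8 in the others. Trim30c had 67 CPM in WT replicate 5 against 0 to 17.2, and Trim30d had 80.7 CPM in WT replicate 2 against 5.05 to 29.2. The high samples of these genes were therefore different mice.

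Outside the cluster, Trim16 had 81.9 CPM in Pon2-/- replicate 1 against 7.27 to 28.9 in the other Pon2-/- samples, and Hbb-bt had 1.11 CPM in Pon2-/- replicate 4 against 0 to 0.0463. Irf9 had 461 CPM in Pon2-/- replicate 2 against 167 to 266, and Ube2v1 had 7.63 CPM in Pon2-/- replicate 4 against 0.541 to 2.76. Pon2 had 1.16 CPM in Pon2-/- replicate 5 against 28.4 to 33.1 in the other Pon2-/- samples.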

How the results depend on the processing

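The number of genes that passed, 24 with edgeR, was 8 without a filter beyond 1 read, 304 with DESeq2 and 5 with the replicate block, and 20 to 28 when 1 mouse was left out. Among the chromosome 7 neighbours it was 2, and 0 without the filter, 5 with DESeq2, 0 with the replicate block, 0 in a window of 1 Mb and 2 to 3 when 1 mouse was left out. The cause was not tested. Same-numbered samples correlated by 0.000932 to 0.043, within the range of other pairs (-0.0582 to 0.063), so that no pairing was seen in the counts. The labels do not say whether same-numbered mice share a litter or day, which these correlations cannot exclude. The other lists stayed at 0 throughout. The log2 fold changes of the members were classed as unchanged in 160 alternatives, with the strictest filter giving none for Trim30c. Some of these still shifted, as voom gave -1.60 (SE 1.39) for Trim30d and -1.94 (SE 1.47) for Trim30b, against -0.44 and -0.99 in edgeR. The sign of Trim30a and Trim30d also turned within this class when single mice were left out. Trim34b was classed as moved in 1 alternative, with 10.53 without WT replicate 4, where WT holds no reads (7.74 to 10.53 over all mice left out). Left-out mice gave -10.14 to -9.70 for Trim12a, -4.15 to -3.62 for Trim5, -1.11 to -0.29 for Trim34a, 0.09 to 0.89 for Trim12c, -1.28 to -0.72 for Trim30b, -2.78 to -0.51 for Trim30c, -0.16 to 0.29 for Trim30a and -0.83 to 0.32 for Trim30d. Depth limits Trim34b in WT and Trim12a in Pon2-/- HSCs, where 2 and 7 reads were counted. With windows of 50 and 100 bases, the share particular to a gene was 40.3% and 61% for Trim34a, 43.2% and 69.5% for Trim34b, 63.4% and 88.3% for Trim5, 66.3% and 91.9% for Trim12c, 89.5% and 96.7% for Trim12a, 98.5% and 100% for Trim30b and 92.5% and 95.4% for Trim30d, and with 50 bases 99.3% for Trim30c and 94% for Trim30a, since longer windows are shared less. Per kb of particular windows, the level of Trim34a was 15.3 CPM (WT) and 10.7 CPM (Pon2-/-).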
